A study of Rattus norvegicus with 6 samples.

Results

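Cytidine deaminase (Cda) and the enzymes that salvage pyrimidine nucleosides were followed in the hearts of 2 related rat strains. The members were 10 genes chosen by pathway, Cda, Uck1, Uck2, Tk1, Tk2, Dck, Dctd, Upp1, Tymp and Cmpk1, and every probe set annotated to exactly 1 of them was taken. This gave 13 of the 31042 probe sets tested, for 9 of the 10 genes. Tymp, thymidine phosphorylase, had no such probe set and was not analysed here. Cda itself had been picked because it differed between the strains in these same arrays, so its difference is given below as a description, without a test. The other 12 probe sets were chosen by function, and the question was whether the fall of Cda was shared by the pathway.

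Dahl S rats, the controls, are inbred and develop hypertension on a salty diet. The congenic strain, S.LEW(10)x12x2x3x5, keeps the Dahl S background and carries a Lewis rat segment on chromosome 10, and the labels do not say how far it reaches. All animals of both strains were males of 53 days that had eaten a low-salt diet (0.3%) since weaning at 30 days, with 1 rat of each strain in a cage. Each strain was measured on 3 arrays, each loaded with heart RNA pooled from 2 rats, so an array reads an average of 2 animals and n = 3 counts pools. Whole heart RNA was used: 9 of 10 cardiomyocyte markers were measured, and the log2 of their summed signal was 17.67 to 17.70 in Dahl S and 17.65 to 17.66 in the congenic strain. Values are log2 expression, differences are congenic minus Dahl S, and a probe set was called where limma gave an adjusted p under 0.05 over all 31042 probe sets.

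Cells obtain pyrimidine nucleotides by building them anew or by salvage of nucleosides released from RNA and DNA. In salvage, Cda deaminates cytidine and deoxycytidine to uridine and deoxyuridine, kinases (Uck1 and Uck2 for uridine and cytidine, Dck and the mitochondrial Tk2 for deoxynucleosides, Tk1 for thymidine in dividing cells) trap nucleosides as monophosphates, and Cmpk1 passes UMP and CMP on to the diphosphates. Upp1 splits uridine to uracil, and Dctd deaminates dCMP to dUMP, the precursor of thymidylate. The adult heart holds few dividing cells and relies on salvage for part of its uridine and cytidine nucleotides.

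The bases upstream of Cda are shown beside those of Uck1, the kinase that competes with it for cytidine, because these genes share a substrate. The Cda values stood apart in the strains, while those of Uck1 overlapped. Both windows are the 250 bases before the RefSeq gene start in GRCr8, which is the genome of a BN rat and of neither strain studied here. They are written 5′ to 3′ along the gene with the GC box GGGCGG in capitals, Cda from chr5:155866542-155866791 and Uck1 from chr3:35942214-35942463, both on the minus strand.
Cda: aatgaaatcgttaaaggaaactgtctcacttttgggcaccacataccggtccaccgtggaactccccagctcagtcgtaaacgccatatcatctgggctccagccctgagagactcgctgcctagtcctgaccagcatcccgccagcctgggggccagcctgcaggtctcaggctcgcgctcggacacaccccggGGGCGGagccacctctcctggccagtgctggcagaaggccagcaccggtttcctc
Uck1: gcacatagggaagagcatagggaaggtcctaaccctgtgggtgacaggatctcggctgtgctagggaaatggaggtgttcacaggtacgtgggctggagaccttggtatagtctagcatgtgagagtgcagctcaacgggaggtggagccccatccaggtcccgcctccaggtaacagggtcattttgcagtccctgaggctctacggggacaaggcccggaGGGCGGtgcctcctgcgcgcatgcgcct
Each window held 1 GC box on the gene's own strand, 50 to 55 bases before the start in Cda and 23 to 28 bases before it in Uck1. Their G and C content was 62.0% for Cda and 60.4% for Uck1, and they held 13 and 10 CpG dinucleotides, against a median of 6 over 27457 windows of that length, 1 for each gene. On either strand, 8 of the 10 members had a GC box, as did 32.4% of all windows. CCAAT was present in 3 members, Uck2, Upp1 and Tymp, and in 34.3% of all windows, while TATAAA was present in Upp1 alone and in 13.1% of all windows. The windows of Cda and Uck1 were therefore of like composition, and these matches describe letters, not bound sites.

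Cda was lower in every congenic array. Its single probe set, 1377112_at, read 7.36, 7.37 and 7.17 on Dahl S arrays 1, 2 and 3, and 6.56, 6.63 and 6.60 on congenic arrays 1, 2 and 3. The highest congenic value lay 0.54 below the lowest Dahl S value, and the strains did not overlap, an order shared by 6.90% of all probe sets. The means were 7.30 ± 0.11 in Dahl S and 6.60 ± 0.03 in the congenic strain (SD, n = 3 each), a difference of -0.70 (SE 0.07), so the congenic level was 1.63-fold lower. Only 18 of the 31042 probe sets fell by at least as much, Cda's included (0.0580%), a rank that follows from how Cda was picked. Because whole hearts were read, fewer cells that express Cda and less Cda RNA per cell cannot be told apart.

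Within Dahl S, array 3 stood lowest for Cda. That array and congenic array 2 also carried the higher signal of the spiked hybridization controls, 11.54 and 11.55 against 10.67 to 10.83 on the other 4 arrays. Cda differed by -0.78 within the 4 arrays of low control signal and by -0.54 between the 2 of high signal, and with any 1 array left out by -0.77 to -0.67. Because the strains do not overlap, a fall in each of these subsets follows from the values above and adds no support to it. What part the control level has in the size of the difference was not tested. The 3′ to 5′ difference of the Gapdh controls, a measure of RNA integrity, was 0.49 to 0.54 in Dahl S and 0.51 to 0.54 in the congenic strain.

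**Figure D1:**
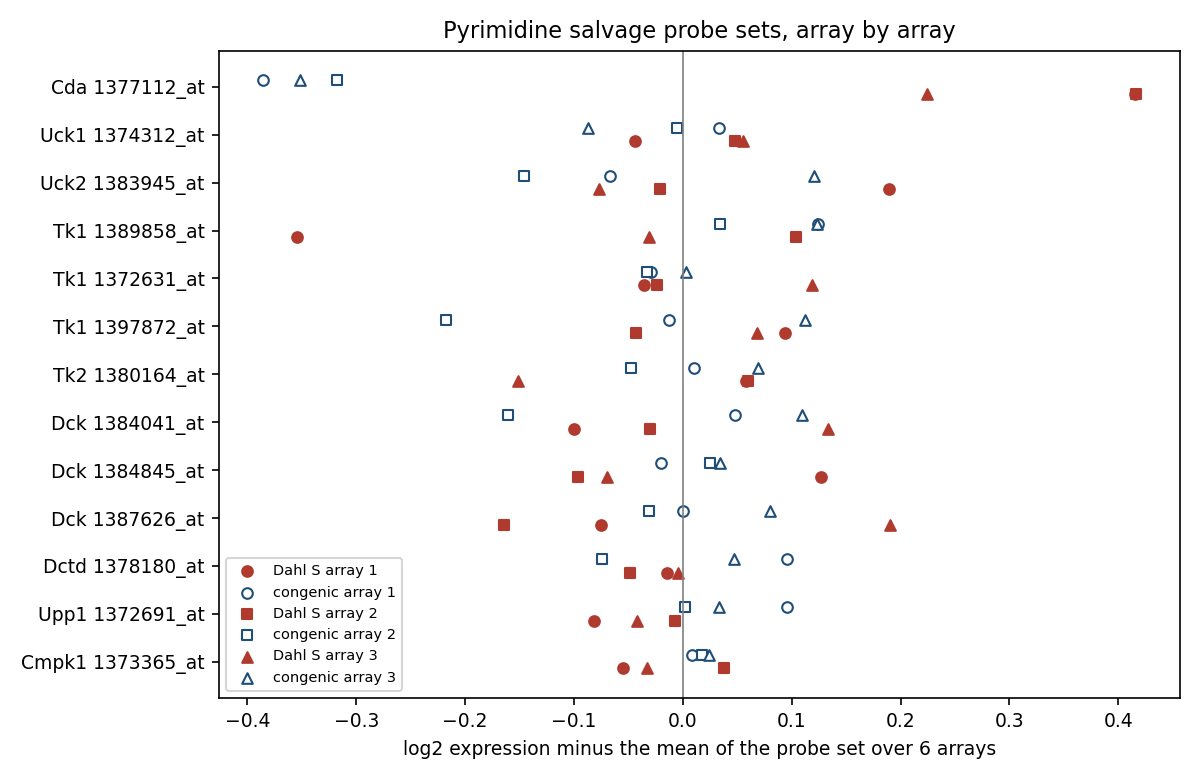
Each row is 1 salvage probe set, and the x axis gives each array's log2 expression minus the mean of that probe set over the 6 arrays; filled symbols are the 3 Dahl S arrays and open symbols the 3 congenic arrays. Cda is the row in which the strains stand wide apart, with a gap of 0.54, and Upp1 is the other row without overlap.

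None of the other salvage probe sets was called. Limma called 0 of these 12, where it called 11 of all 31042 probe sets (0.0354%), and 0 of 12 had an unadjusted p under 0.05, where 6.67% of all probe sets did. Their differences ran from -0.08 to 0.19, 7 above and 5 below 0, with adjusted p from 0.809 to 0.998. By gene, taking the brightest probe set of each, the median of the 8 genes other than Cda was 0.03 against -0.01 for all 14217 genes. The lower limits of these 12 intervals (95%) reached no further than -0.29, a 1.22-fold fall. A fall of the size seen for Cda lay outside the interval of each of them, while smaller changes lay inside. A dim probe set may not show a fall of its gene. Dck 1387626_at had a Dahl S mean of only 3.97, so its interval says little. Dck 1384845_at and Tk1 1397872_at, at 5.85 and 5.91, were also dimmer than the median probe set (6.55).

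**Figure D2:**
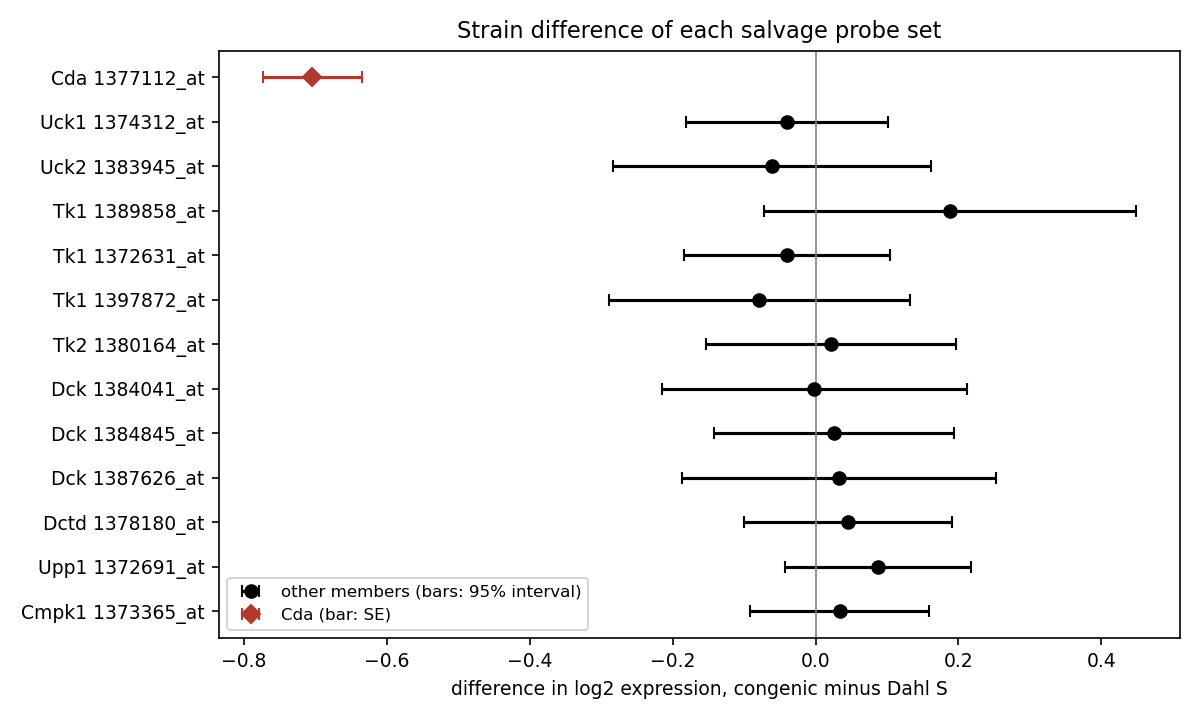
Each row gives the congenic minus Dahl S difference in log2 expression of 1 salvage probe set; circles are the 12 probe sets other than Cda with their 95% intervals, and the diamond is Cda with its SE. The 12 intervals all include 0, with lower limits no further than -0.29, while Cda sits at -0.70.

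The uridine and cytidine kinases, which work on the nucleoside that Cda removes and on the uridine that it makes, were not called. Uck1 gave 8.12, 8.21 and 8.22 on Dahl S arrays 1 to 3 and 8.19, 8.16 and 8.07 on congenic arrays 1 to 3. These ranges overlapped, and the difference was -0.04 (95% interval -0.18 to 0.10, adjusted p = 0.927). Uck2 gave 8.01, 7.80 and 7.74 in Dahl S and 7.76, 7.68 and 7.94 in the congenic strain. Dahl S array 1 and congenic array 3 were its high arrays, and the difference was -0.06 (95% interval -0.28 to 0.16, adjusted p = 0.929). Cmpk1, the next kinase on the route, gave 11.20, 11.29 and 11.22 in Dahl S and 11.26, 11.27 and 11.28 in the congenic strain. The congenic arrays lay within the Dahl S range, with a difference of 0.03 (95% interval -0.09 to 0.16, adjusted p = 0.932).

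Uridine phosphorylase showed the other separation without overlap, in the opposite direction and much smaller. Upp1 gave 8.91, 8.98 and 8.95 on the Dahl S arrays and 9.09, 8.99 and 9.02 on the congenic arrays. All 3 congenic values exceeded all 3 Dahl S values, the closest pair being 8.99 and 8.98, as was true of 5.83% of all probe sets. The difference was 0.09 (95% interval -0.04 to 0.22, adjusted p = 0.817). Among the other members the strains overlapped in all 11 remaining probe sets.

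The deoxynucleoside kinases did not separate the strains either. Dck, which phosphorylates deoxycytidine and so shares a substrate with Cda, had 3 probe sets. The brightest, 1384041_at, gave 6.72, 6.79 and 6.95 in Dahl S and 6.87, 6.66 and 6.93 in the congenic strain, a difference of -0.00 (95% interval -0.22 to 0.21, adjusted p = 0.998). The dimmer probe sets differed by 0.03 each (95% intervals -0.14 to 0.19 and -0.19 to 0.25). Within the arrays of low control signal the brightest differed by 0.14 and between those of high signal by -0.29, so the spread among arrays was larger than the strain difference.

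Dahl S array 3 gave the highest Dck value on 2 of the 3 probe sets, 6.95 on 1384041_at and 4.18 on the very dim 1387626_at. On 1384845_at it read 5.79, and Dahl S array 1 was highest at 5.99. Dahl S array 3 also had the highest summed signal of the lymphocyte markers, 10.97 against 9.08 to 10.43 on the other 5 arrays (log2). Of these markers 8 of 10 were measured. On the brightest Dck probe set congenic array 1 read 6.87, with a lymphocyte sum of 10.43, and congenic array 3 read 6.93, with a sum of 9.11. Lymphocytes are known for high Dck activity, and their part in the Dck values was not tested.

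Tk2, the mitochondrial kinase that phosphorylates thymidine and deoxycytidine in non-dividing cells, gave 7.27, 7.28 and 7.07 in Dahl S and 7.23, 7.17 and 7.29 in the congenic strain. Dahl S array 3 was lowest and congenic array 2 next, the 2 arrays of high control signal, whose part in these values was not tested. The difference was 0.02 (95% interval -0.15 to 0.20, adjusted p = 0.973). Dctd gave 6.84, 6.81 and 6.85 in Dahl S and 6.95, 6.78 and 6.91 in the congenic strain. Its congenic arrays spanned the Dahl S values, with a difference of 0.05 (95% interval -0.10 to 0.19, adjusted p = 0.918).

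Tk1, the thymidine kinase of dividing cells, is the member on chromosome 10, and no source used here says if the introgressed stretch includes it. Its 3 probe sets did not point 1 way. The brightest, 1389858_at, gave 6.97, 7.43 and 7.30 in Dahl S and 7.45, 7.36 and 7.45 in the congenic strain, a difference of 0.19 (95% interval -0.07 to 0.45, adjusted p = 0.809). Dahl S array 1 was far below the others. Without Dahl S array 1 the difference was 0.06, and without Dahl S array 2 it was 0.29 (unadjusted p = 0.0314 in limma, adjusted p = 0.941), the one setting of those run in which a member other than Cda had an unadjusted p under 0.05.

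The other Tk1 probe sets differed by -0.04 (1372631_at, 95% interval -0.18 to 0.10) and -0.08 (1397872_at, 95% interval -0.29 to 0.13). Dahl S array 1 was also lowest in the summed signal of 12 dividing-cell markers, at 11.28 against 11.36 to 11.57 on the other 5 arrays (log2). Of these markers 11 lay above 0 and 4 of 12 were higher at an unadjusted p under 0.05, where 3.47% of all genes were. Among the 4 were Mki67 (0.39, adjusted p = 0.721) and Bub1b (0.34, adjusted p = 0.721). Limma called 0, where it called 0.0352% of all genes. The rise was not uniform: Pcna, Mcm2, Mcm3, Mcm5 and Mcm6 were at 0.03, 0.05, -0.07, 0.01 and 0.03. The part of the 12 markers in the Tk1 values was not tested.

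The rest of nucleotide metabolism was read from 8 lists with 64 genes, of which 53 were measured, each by its brightest probe set. Limma called 0 of the 53 (5 of 14217 genes, 0.0352%). At an unadjusted p under 0.05 there were 5 (9.43%), 2 higher and 3 lower, where 7.03% of all genes passed, 3.47% higher and 3.55% lower. The differences spanned -0.28 to 0.20 around a median of -0.02, so none of the 53 fell by as much as Cda. The strains did not overlap in 11 of them, 7 lower (13.2%) and 4 higher (7.55%), against 8.75% and 5.89% of all genes.

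**Figure D3:**
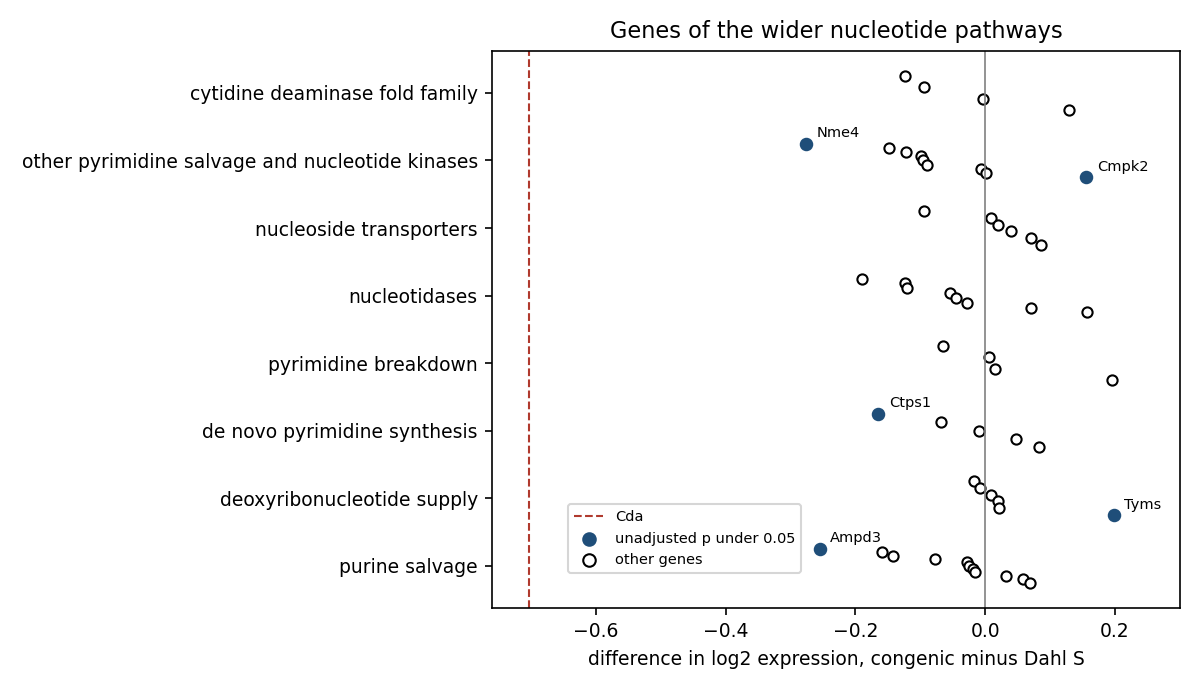
Each circle is 1 of the 53 measured genes in the 8 nucleotide lists, placed at its congenic minus Dahl S difference in log2 expression; filled circles are the 5 genes with an unadjusted p under 0.05. All lie between -0.28 and 0.20, to the right of the dashed line at the Cda difference of -0.70.

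The deaminases related to Cda by fold showed no fall of that size. Of 6 listed genes 4 were measured, and 0 had an unadjusted p under 0.05. Apobec2, a muscle member of the APOBEC family, gave 10.95, 11.04 and 11.08 in Dahl S and 10.92, 10.83 and 10.95 in the congenic strain, a difference of -0.12 (adjusted p = 0.790). Apobec1, the editing enzyme of apolipoprotein B mRNA, was at 0.13 (adjusted p = 0.773), with every congenic array above every Dahl S array. Cdadc1 gave 9.61, 9.67 and 9.58 in Dahl S and 9.51, 9.55 and 9.52 in the congenic strain, without overlap and lower like Cda, and its difference of -0.09 did not pass (adjusted p = 0.800). Apobec3 differed by -0.00.

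Among 9 measured genes of the other salvage and nucleotide kinases, 7 lay below 0 and the median was -0.10. Nme4, a mitochondrial nucleoside diphosphate kinase, gave 7.73, 7.59 and 7.40 in Dahl S and 7.35, 7.17 and 7.37 in the congenic strain. Each congenic array lay below each Dahl S array, the nearest by a small margin, and the difference of -0.28 did not pass (SE 0.10, unadjusted p = 0.0214, adjusted p = 0.736 in limma). Cmpk2, the mitochondrial UMP-CMP kinase that is induced by interferon, gave 8.49, 8.45 and 8.44 in Dahl S and 8.73, 8.54 and 8.58 in the congenic strain, a difference of 0.16 that did not pass (unadjusted p = 0.0466, adjusted p = 0.744 in limma). So the mitochondrial Cmpk2 and Cmpk1, its cytosolic counterpart, were at 0.16 and 0.03, and the gap between them was not tested.

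Ctps1, a CTP synthase, had the lowest difference of the de novo list. Ctps1 gave 9.18, 9.30 and 9.17 in Dahl S and 9.06, 9.07 and 9.03 in the congenic strain. The strains did not overlap, and the difference of -0.16 (SE 0.06) did not pass (unadjusted p = 0.0235, adjusted p = 0.736 in limma). Its relative Ctps2 was at 0.08 (adjusted p = 0.844). The other de novo genes, Cad, Dhodh and Umps, differed by 0.05, -0.01 and -0.07.

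Thymidylate synthase, Tyms, which uses the dUMP that Dctd makes, gave 5.66, 5.53 and 5.58 in Dahl S and 5.70, 5.72 and 5.94 in the congenic strain. All congenic arrays were higher on this dim probe set, and the difference of 0.20 did not pass (unadjusted p = 0.0377, adjusted p = 0.736 in limma). The other 5 measured genes of deoxyribonucleotide supply stayed within -0.02 and 0.02, Rrm1, the large subunit of ribonucleotide reductase, among them (0.02, adjusted p = 0.974).

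Nucleoside transporters, nucleotidases and the enzymes of pyrimidine breakdown had 0 genes at an unadjusted p under 0.05, of 6, 8 and 4 measured. Slc29a2 and Slc28a1, an equilibrative and a concentrative nucleoside carrier, were at 0.09 (adjusted p = 0.846) and -0.09 (adjusted p = 0.875). Nt5c3a, a nucleotidase that acts on CMP and UMP, was at -0.12 (adjusted p = 0.786) with the congenic arrays below all Dahl S arrays, and Nt5dc2 was at 0.16 (adjusted p = 0.791). Dpyd, the first enzyme of uracil breakdown, was at -0.06 (adjusted p = 0.907), and Upb1, the last, was at 0.20 on a probe set with a Dahl S mean of only 4.34 (adjusted p = 0.793).

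Purine salvage was included as the parallel route. Of its 11 measured genes 8 lay below 0, with a median of -0.03. Ampd3, an AMP deaminase, gave 10.02, 9.99 and 9.82 in Dahl S and 9.74, 9.64 and 9.68 in the congenic strain, without overlap, and its difference of -0.25 did not pass (SE 0.07, unadjusted p = 0.00743, adjusted p = 0.729 in limma). Dguok, the mitochondrial deoxyguanosine kinase that pairs with Tk2, was at -0.14 (adjusted p = 0.786).

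Cda lies on chromosome 5. None of its nearest measured neighbours was called, where limma called 5 of all 14217 genes (0.0352%). In annotation order the 5 genes on one side were Pink1, Ddost, Sh2d5, Hp1bp3 and Eif4g3, and the 5 on the other were Fam43b, Mul1, Camk2n1, Pla2g2c and Pla2g2f. Pink1, the mitochondrial quality-control kinase next to Cda, gave 12.38, 12.40 and 12.37 in Dahl S and 12.39, 12.28 and 12.29 in the congenic strain. Its difference was -0.07 (95% interval -0.20 to 0.07, adjusted p = 0.861). On the other side Fam43b was at 0.01, on a dim probe set, and Mul1, a mitochondrial ubiquitin ligase, at -0.07 (adjusted p = 0.896).

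All 10 lay between -0.08 and 0.14, and 0 of 10 had an unadjusted p under 0.05. Within 20 measured genes on each side, 40 in all, limma called 0, where it called 0.0352% of all genes. An unadjusted p under 0.05 was found for 3 (7.50% against 7.03% of all genes), all higher. These were C1qb (0.19), C1qc (0.24) and Epha8 (0.16), named after their values were seen, of which the complement genes C1qb and C1qc also belong to the macrophage markers.

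**Figure D4:**
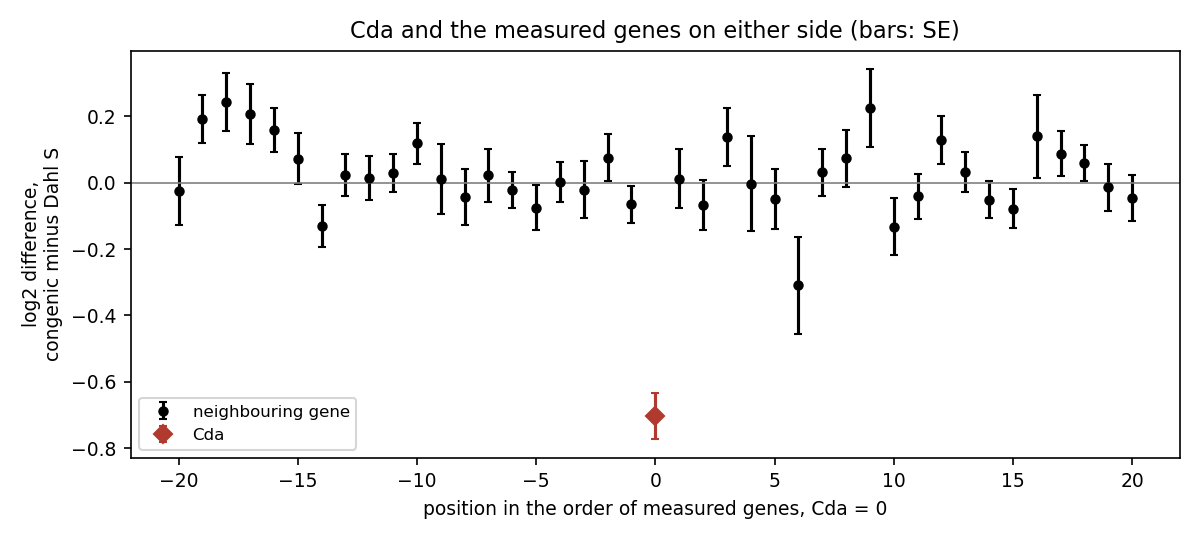
The x axis is the place in the annotation order of measured genes on chromosome 5, with Cda at 0, and the y axis is the congenic minus Dahl S difference in log2 expression with its SE. The 10 genes nearest to Cda lie between -0.08 and 0.14, while Cda is at -0.70.

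Genes were also picked for following Cda over the 6 arrays, and because Cda stood at 2 separate strain levels, such genes are bound to differ between the strains. Pearson's r was taken over the 428 genes brighter than the median probe set and with a range of at least 0.5, and these r describe 6 arrays with 2 strain levels. The 5 closest were Lmod3, an actin nucleator of striated muscle (r = 0.993, difference -0.65), Ankrd45 (r = 0.990, difference -0.50), Inhca (r = 0.981, difference -0.43), Ano5, an anoctamin of muscle (r = 0.974, difference -0.65), and Gja3, a connexin (r = 0.971, difference -0.39). Each of these 5 separated the strains without overlap and in the same direction as Cda, as did 8.75% of all genes. That order follows largely from picking them by r and adds no support to the Cda difference. The 5 most opposite were Mbd2 (r = -0.990, difference 1.40), C18h18orf54 (r = -0.978, difference 1.54), Inha (r = -0.976, difference 0.61), Emb (r = -0.963, difference 0.35) and Cdca3 (r = -0.961, difference 0.35). The salvage genes other than Cda had smaller ranges and were not among the 428.

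Neutrophils are a known source of Cda in human blood, so markers of the non-muscle cells were read beside it. Of 7 neutrophil markers measured (of 11), 6 lay above 0, and the log2 of their summed signal was 8.44 to 8.60 in Dahl S and 8.64 to 8.83 in the congenic strain, opposite in direction to Cda. The markers other than S100a8 and S100a9 were dim, with Dahl S means of 4.24 to 5.15, so their signs say little. The sum rests mainly on S100a9, the brightest of them, with a Dahl S mean of 7.56. S100a8 gave 5.81, 5.87 and 5.75 in Dahl S and 5.91, 5.99 and 6.05 in the congenic strain (0.17, adjusted p = 0.736). S100a9 differed by 0.27 (adjusted p = 0.744), and its strains overlapped, with Dahl S array 3 at 7.74 and congenic array 2 at 7.68. Macrophage markers lay above 0 in 9 of 10, with sums of 12.10 to 12.47 and 12.38 to 12.44. Erythroid and fibroblast markers lay above 0 in 5 of 5 and 7 of 7, platelet markers in 5 of 5 and endothelial markers in 5 of 7. The median difference of all genes was -0.01. At an unadjusted p under 0.05 in limma, 4 of 10 macrophage, 2 of 7 neutrophil, 2 of 5 erythroid and 2 of 7 fibroblast markers were higher. So were 1 of 7 endothelial and 0 of 5 platelet markers, where 3.47% of all genes were, and 0 markers of these lists were lower at that level. Sums in Dahl S and the congenic strain were 14.53 to 14.77 and 14.81 to 14.85 for erythroid and 15.40 to 15.51 and 15.54 to 15.73 for fibroblast markers. They were 9.80 to 10.00 and 9.95 to 10.07 for platelet, and 13.31 to 13.40 and 13.35 to 13.42 for endothelial markers. The erythroid sum rests mainly on Hbb, with a Dahl S mean of 14.51, and the platelet sum on Pf4, at 9.47. Platelet markers also include dim ones, such as Gp5 at 4.31.

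Markers that leaned the same way as Cda were those of lymphocytes, with 6 of 8 below 0, of adipocytes, with 3 of 4 below 0, and of cardiomyocytes, with 9 of 9 below 0 and a median of -0.02. Lymphocyte sums ran from 9.08 to 10.97 in Dahl S and 9.11 to 10.43 in the congenic strain, and adipocyte sums from 8.63 to 10.36 and 8.95 to 10.12, so both overlapped. Dahl S array 3, the highest for both, was the Dahl S array on which Cda was lowest. The congenic arrays were mixed. Congenic array 1 had the highest congenic lymphocyte sum (10.43) and the lowest Cda (6.56). Congenic array 2 had the highest congenic adipocyte sum (10.12) and the highest congenic Cda (6.63). Limma called 0 genes of all these marker lists, where it called 0.0352% of all genes. The part of these markers in the Cda difference was not tested.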

How the data were processed

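The authors deposited log2 expression per probe set, 1 column for each of 6 Affymetrix Rat Expression Array 230 2.0 arrays, made with RMA per the submitters' processing notes. RMA corrects background and normalizes between arrays; its version and probe annotation are not given in the sources used here. No detection call comes with such values, so dim probe sets were kept. The number of arrays limits the precision.

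Of 31099 probe sets, 57 controls were left out. Symbols came from the platform annotation, updated by gene ID through RefSeq's GRCr8 table, and 20826 probe sets had 1 gene. The brightest probe set stood for a gene in counts by gene. The strain comparison was a limma fit (lmFit and eBayes, limma 3.58.1 under R 4.3.3) with strain as its single term and Benjamini-Hochberg adjustment over 31042 probe sets, a step tested on simulated data. Intervals are at 95% and unadjusted. The summed signal of a marker list is the log2 of the sum of its genes' linear signals. Sequences were RefSeq's in GRCr8, and windows were found for 10 of 10 members. Plots used matplotlib 3.10.9 in Python 3.11.15.

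The members, lists and tests were chosen with earlier results of these data known. The text names every member, the 2 genes of each nucleotide list with the smallest unadjusted p, 5 neighbours of Cda on each side and the 5 genes most like and most unlike it. The same rule picked genes of the marker lists, which are given here mainly as counts. Beyond the rule, Cdadc1, Apobec3, Cad, Dhodh, Umps, C1qb, C1qc and Epha8 were named after their values were seen. So were Pcna, Mcm2, Mcm3, Mcm5, Mcm6 and Hbb. The alternatives were another normalization, variance model or brightness filter, blocks, and leaving out arrays.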

Additional observations from a re-analysis of the deposited data

How the results depend on the processing

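The Cda difference lay between -0.78 and -0.67 in the 15 alternatives run (16 for counts by gene). The variance models, the brightness filter and the replicate block cannot change it, so they add nothing to that range. The -0.54 between the 2 arrays of high control signal is not among these alternatives. In each of them 0 of the other salvage probe sets and 0 of the wider pathway genes were called. With ordinary variance even Mbd2, at 1.40, was not called (t-test, adjusted p = 0.0959), so 0 calls there say little. All 12 probe sets and 53 genes were tested, except that 9 and 43 were left when only probe sets brighter than the median were kept. The median of the 8 salvage genes other than Cda lay between 0.01 and 0.06. Salvage probe sets with an unadjusted p under 0.05 numbered 0 to 1 with 1 array left out, the 1 being Tk1 without Dahl S array 2. The 5 wider pathway genes at that level were 8 with an intensity trend, robust or not, 3 with ordinary variance, 3 with the replicate number as a block, and 1 to 7 with 1 array left out: 1 without Dahl S array 2 and 3 without congenic array 3. Same-numbered arrays deviated with correlations of -0.07, -0.06 and -0.18, and 0 of 6 arrays correlated best with its own number, so the numbers were not taken as pairs.

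Small differences changed sign, and the cause was not tested. Within the 4 arrays of low hybridization-control signal Tk1 differed by 0.017 on 1372631_at and 0.025 on 1397872_at, Tk2 by -0.019, Dck by 0.14 on 1384041_at and -0.0084 on 1384845_at, Hp1bp3 by -0.012, Sh2d5 by 0.029, Fam43b by -0.079 (-0.011 with quantile normalization), Mul1 by 0.0031 and Pla2g2c by 0.20. With 1 array left out, Uck2 ran from -0.14 to 0.018, Tk1 from -0.067 to 0.0099 on 1372631_at and from -0.15 to 0.010 on 1397872_at, Tk2 from -0.049 to 0.057, and Dck from -0.057 to 0.078 on 1384041_at, -0.016 to 0.096 on 1384845_at and -0.041 to 0.14 on 1387626_at. Likewise Rrm1 ran from -0.035 to 0.071, Hp1bp3 from -0.032 to 0.036, Sh2d5 from -0.087 to 0.048, Fam43b from -0.076 to 0.090, Pla2g2c from -0.11 to 0.18 and Pla2g2f from -0.11 to 0.018. With 3 pools a strain, changes as small as these could not be told from the spread between arrays.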
